A study of Mus musculus with 4 samples.

Results

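The cells described here were 1244 collagen-expressing stromal cells that carried transcripts of *Prg4*, *Cxcl5*, *Chl1* or *Aldh1a2*, found among 59824 single cells of tibial muscle with at most 10% mitochondrial UMIs (62665 cells were deposited). They were chosen by raw UMIs (unique molecular identifiers, each standing for 1 captured transcript). A member held at least 10 UMIs of *Col1a1*, *Col1a2* and *Col3a1* together, at least 3 of *Cxcl5*, *Aldh1a2*, *Prg4* and *Chl1* together (the rule genes), none of *Ptprc* or *Pi16*, and at most 2 of *Smoc2* and *Col15a1* together. All 4 groups were tibial muscle of *Nse-Bmp4* mice on the C57BL/6 strain, aged 6 to 8 weeks, a model of heterotopic ossification (HO), which is bone forming in soft tissue. The transgene places *Bmp4* under the promoter of neuron-specific enolase, and the Uninjured muscle carried it as well. Injury was by cardiotoxin (CTX), and dpi stands for days post injury. Muscle was Uninjured or was taken at 1 dpi, at 3 dpi or at 7 dpi. For each group 3 tibial muscles were mixed and digested with collagenase into 1 library, so no difference below has a replicate check, and intervals (95%, exact) cover counting error only.

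Fibroblasts of injured tissue secrete chemokines that call in leukocytes, lay down provisional matrix and can turn to tendon, cartilage or bone programs. *Cxcl5* encodes a chemokine that attracts neutrophils. *Prg4* encodes lubricin, a glycoprotein that lubricates joint and tendon surfaces, *Aldh1a2* an enzyme that makes retinoic acid, and *Chl1* a cell adhesion molecule of the L1 family that is best known in the nervous system.

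The files held 12031, 11722, 15160 and 23752 cells in the Uninjured, 1, 3 and 7 dpi libraries, and values given in sets of 4 below keep this order. Their median depth was 8629, 5561, 4214 and 3083 UMIs per cell. The members were of more even depth, with medians of 8199, 8153, 8754 and 8916 UMIs, whereas the other stromal cells had medians of 9252, 8237, 6382 and 3316. Any pair of libraries shared 30 to 95 cell barcodes. The CPM values below are UMIs of a gene per 1000000 UMIs summed over the members of a library, and these sums held 651341, 1493727, 9196720 and 3633512 UMIs.

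Members were most frequent at 3 dpi. They numbered 57 in Uninjured muscle, 125 at 1 dpi, 742 at 3 dpi and 320 at 7 dpi. Of all stromal cells (cells that met the collagen threshold and held no *Ptprc* UMI), they made up 0.605% (0.459 to 0.783), 3.29% (2.75 to 3.91), 11.2% (10.5 to 12.0) and 1.75% (1.56 to 1.95). The intervals of the 4 libraries did not overlap. When each cell was thinned to 2000 UMIs before the rule was applied, which left out 742, 1467, 3783 and 7353 shallower cells, the shares were 1.66%, 8.28%, 22.9% and 0.833%. The 3 dpi library was the highest both ways, while the order of the Uninjured and 7 dpi libraries turned. Fewer UMIs per cell make the limits on *Pi16*, *Smoc2* and *Col15a1* easier to meet and the minimum on the rule genes harder.

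**Figure D1:**
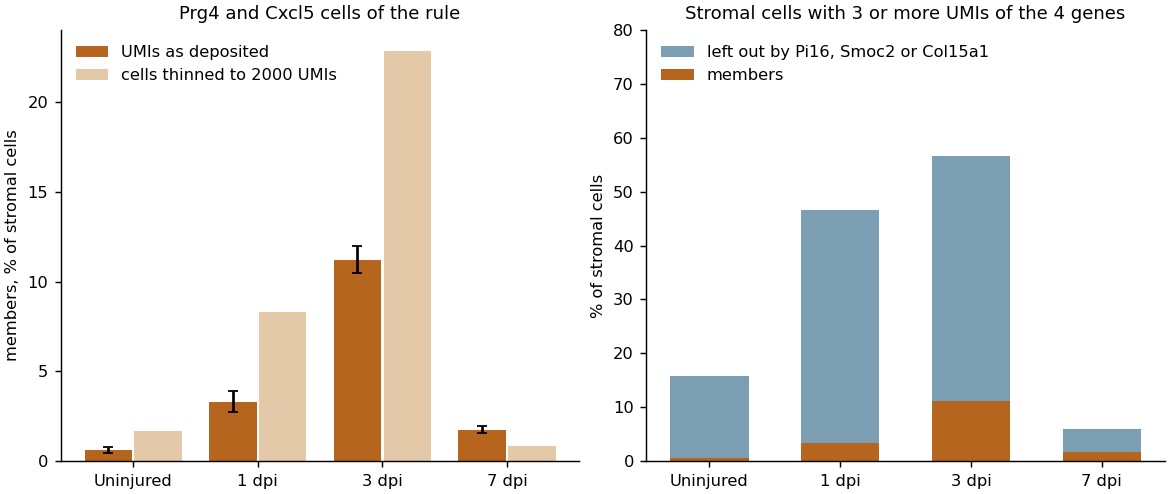
Members as a percentage of stromal cells in each library (left), from UMIs as deposited (dark bars, with 95% Clopper-Pearson intervals) and after thinning cells to 2000 UMIs (pale bars), and all stromal cells with at least 3 UMIs of the rule genes (right), split into members and cells left out by *Pi16*, *Smoc2* or *Col15a1*. The 3 dpi library is the highest in each panel, and members are the smaller portion of the cells with the rule genes in every library.

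The rule genes were not restricted to the members. Of the stromal cells, 15.9%, 46.5%, 56.6% and 5.86% held at least 3 UMIs of the rule genes, and *Pi16*, *Smoc2* or *Col15a1* kept 1438, 1643, 3008 and 755 of these out. Members were therefore the cells of a wider stroma with the rule genes that held no *Pi16* and at most 2 UMIs of *Smoc2* and *Col15a1*. Other genes of those fibroblasts were still present, with 2742, 2408, 3564 and 4136 CPM of 8 markers of *Pi16* adventitial fibroblasts in the members and 4475, 3471, 3192 and 3747 CPM in the other stromal cells. The left-out cells were deeper, with medians of 11240, 10500, 11900 and 12860 UMIs. They are part of the other stromal cells, which numbered 9362, 3675, 5885 and 18018, so these 2 groups overlap. As a measure of free RNA, the immune cells (at least 3 UMIs of *Ptprc*) reached the same minimum in 3.35%, 3.36%, 4.83% and 1.66% of cells, at median depths of 5881, 5996, 4758 and 3072 UMIs. The share of all stromal cells with the rule genes stood above this background in every library. Members alone made up 19.3%, 44.8%, 51.6% and 2.75% (2.46 to 3.06) of the stromal cells within the limits on *Pi16*, *Smoc2* and *Col15a1*, and at 7 dpi this interval overlapped that of the immune cells (0.932 to 2.72).

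Members at the limit were most frequent at 7 dpi. Cells with 2 UMIs of the rule genes that met all other conditions numbered 9, 23, 117 and 354, against 9, 8, 87 and 131 members with 3. At 3 dpi the cells with 2 UMIs had a *Prg4* level of 181.6 CPM and a median of 2929 UMIs, and those with 3 had 268.2 CPM and 3220 UMIs.

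The label given to these cells names *Cxcl5* and *Prg4*, which are both rule genes. *Prg4* (GRCm38 chromosome 1, 150449412 to 150466165, minus strand) stood at 941, 2649, 1339 and 299 CPM in the members and at 333, 987, 1207 and 45.5 CPM in the other stromal cells. *Cxcl5* (chromosome 5, 90759360 to 90761624, plus strand) stood at 109, 716, 420 and 157 CPM, against 21.7, 242, 249 and 11.6 CPM. From UMIs as deposited both genes peaked at 1 dpi in the members. Once cells were thinned to 2000 UMIs, *Cxcl5* was higher at 3 than at 1 dpi, with a log2 ratio of 0.52. Both genes chose the members, so their excess is a description. The excess of *Prg4* was 1.11-fold (1.09 to 1.13) at 3 dpi, where members were most frequent, and 6.58-fold (6.16 to 7.03) at 7 dpi. The other stromal cells include the left-out cells, which also reached the minimum of the rule genes.

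The other label genes went several ways. *Aldh1a2* (chromosome 9, 71215789 to 71296243, plus strand) stood at 15.4, 95.7, 115.5 and 11.3 CPM in the members, at 49.9, 241, 233 and 17.8 CPM in the other stromal cells and at 142, 376, 311 and 106 CPM in the left-out cells with the rule genes. From UMIs as deposited *Aldh1a2* was thus lower in the members than in both of these groups, which overlap, in all 4 libraries. Once cells were thinned to 2000 UMIs, it was higher in the members than in the other stromal cells. *Chl1* (chromosome 6, 103510586 to 103750211, plus strand) stood at 89.1, 49.5, 86.9 and 125 CPM against 18.6, 2.58, 82.5 and 24.4 CPM in the other stromal cells, so that the levels were alike at 3 dpi and apart at the other times. *Adamts4*, an aggrecan-cutting protease that the rule did not use, stood at 12.3, 77.0, 126 and 27.5 CPM, against 8.26, 98.7, 138 and 30.5 CPM. It was higher after injury in both groups of cells. Once cells were thinned to 2000 UMIs, its log2 ratio between members and other stromal cells turned to 0.84 at 1 dpi and 0.16 at 3 dpi. *Saa3*, an acute phase protein, had 1.54, 111, 29.5 and 130 CPM, in at most 7.14% of members of any library, and at 7 dpi 259 of its 471 UMIs (55.0%) came from 1 cell. Since *Cxcl5* was also found in at most 44.3% of the members of a library, the cells are called *Prg4* and *Cxcl5* cells below after the 2 rule genes with most UMIs, with no cell type implied. Of the general fibroblast genes, *Dcn*, a collagen-binding proteoglycan, was found in 94.7%, 98.4%, 98.4% and 98.1% of them, and *Pdgfra* stood at 144, 333, 222 and 85.6 CPM. Some also held markers of other cell types, and 42.1%, 27.2%, 11.2% and 56.3% of members held at least 2 UMIs summed over 6 defining markers of other types.

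**Figure D2:**
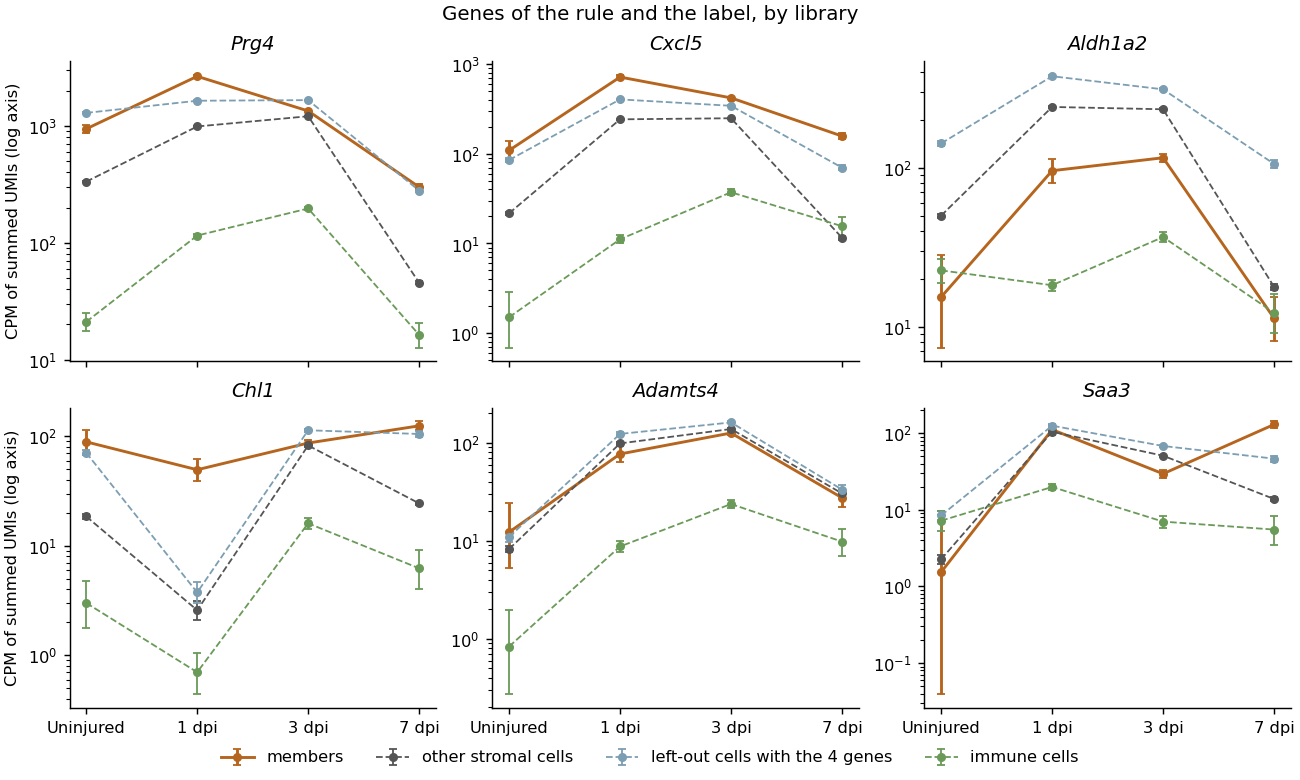
CPM (log axis, 95% exact Poisson intervals) of the rule genes and of *Adamts4* and *Saa3* in members, other stromal cells, left-out stromal cells with the rule genes and immune cells, by library. The other stromal cells include the left-out cells. Member *Cxcl5* runs from 109 CPM in Uninjured muscle to 716 CPM at 1 dpi and stays above the other stromal cells, whereas member *Aldh1a2* lies below them throughout.

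*Prg4* led most members. The leading gene of a cell is the rule gene with most UMIs, counted as deposited and not corrected for transcript length. *Prg4* led 46 of 57 Uninjured members (80.7%), 89 of 125 at 1 dpi (71.2%), 501 of 742 at 3 dpi (67.5%) and 161 of 320 at 7 dpi (50.3%). *Cxcl5* led 3.51%, 15.2%, 16.9% and 18.4% of members, and *Chl1* led 12.3%, 7.2%, 2.97% and 26.3%. *Aldh1a2* led 3.51%, 5.6%, 7.28% and 2.19%. The mix of leading genes therefore differed between libraries, and in every time comparison below a changed level per cell and a changed mix of members cannot be told apart.

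How many rule genes a member held differed between libraries. A single rule gene was found in 87.7%, 48.8%, 33.6% and 58.1% of members, and all 4 in 50 cells, which were all from the 3 dpi library. *Prg4* was found in 86.0%, 86.4%, 93.5% and 66.2% of members, and *Cxcl5* in 5.26%, 36.8%, 44.3% and 25.0%. *Cxcl5* and *Prg4* were found together in 5.26%, 31.2%, 41.1% and 8.44% of members, with or without other rule genes, so that members with both were a minority in each library. Among pairs held without other rule genes, the most frequent at 7 dpi was *Prg4* with *Chl1*, in 22.2% of members. *Cxcl5* with *Prg4*, counted in this way, was found in 6.25%. In Uninjured muscle 51 of the 71 *Cxcl5* UMIs (71.8%) came from 1 cell, and *Cxcl5* was detected in 5.26% of 57 members.

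**Figure D3:**
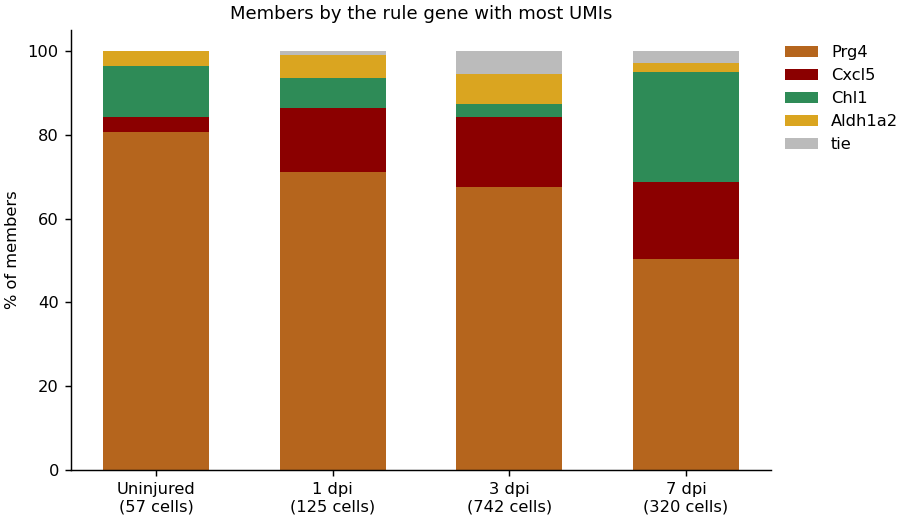
Members of each library split by leading rule gene, in percent of members. *Prg4* falls from 80.7% of Uninjured members to 50.3% at 7 dpi, and *Chl1* makes up 26.3% at 7 dpi.

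Tendon genes were higher in the members than in the other stromal cells, and up to 3 dpi were concentrated in members with the tendon gene *Tnmd*. Of 9 tenocyte markers, 8 were past 2-fold higher in the Uninjured members than in the other stromal cells, where 11.6% of 16070 genes were, and the median log2 ratio of the list was 3.83 against 0.00 over all genes. At 1 dpi again 8 of 9 were higher (7.12% of all genes), at 3 dpi 6 of 9 (2.86%) and at 7 dpi 2 of 9 (3.90%), with list medians of 4.62, 2.41 and 0.39. The summed level of the list was 5914, 5111, 3031 and 3582 CPM in the members and 2743, 3390, 2292 and 3446 CPM in the other stromal cells. The difference was thus widest before and at 1 dpi and was nearly closed at 7 dpi.

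*Tnmd*, which encodes the tendon membrane protein tenomodulin, stood at 622, 91.7, 70.5 and 203 CPM in the members, against 52.3, 8.03, 9.34 and 155 CPM. *Scx*, a transcription factor of tendon progenitors, stood at 261, 23.4, 15.7 and 90.6 CPM, against 7.32, 0.84, 9.66 and 71.9 CPM. The excess of *Scx* fell from 35.7-fold in Uninjured muscle to 1.26-fold at 7 dpi, where the other stromal cells held the gene as well. *Fmod*, a proteoglycan that shapes collagen fibrils, stood at 1145, 1137, 498 and 663 CPM, against 80.7, 43.7, 64.7 and 514 CPM. *Thbs4*, a matricellular protein of tendon, stood at 1873, 1731, 1255 and 915 CPM, against 192, 201, 658 and 467 CPM. *Egr1*, a transcription factor on the same list that also answers to cell stress, was the exception, with levels 1.78-, 1.84-, 1.55- and 1.10-fold lower in the members. Without the members that held markers of other cell types (*Tnmd* among these), *Thbs4* and *Scx* turned at 3 dpi, to log2 ratios of -0.24 and -0.63. At 7 dpi *Scx* turned to -0.80 and *Fmod* to -1.01. Of all single-gene values in this setting 18 turned, 63 moved without turning and 37 stayed.

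Only *Kera*, *Cilp2* and *Wif1* were past 2-fold higher in the members in all 4 libraries, out of 2955 genes with at least 30 UMIs in the members of each. *Kera* encodes keratocan, a proteoglycan of cornea and tendon, and exceeded the other stromal cells 20.2-, 29.9-, 14.7- and 5.79-fold. *Cilp2*, a matrix protein of cartilage and tendon, exceeded them 23.0-, 24.6-, 10.5- and 5.35-fold. *Wif1*, a secreted Wnt inhibitor, exceeded them 21.4-, 6.50-, 10.9- and 3.43-fold. Without the members that held markers of other cell types, all 3 turned at 7 dpi, to log2 ratios of -0.57, -3.29 and -2.00, on 10, 1 and 1 UMIs in the members, and *Cilp2* also at 3 dpi, to -0.13 on 15 UMIs. The closest to the limit were *Chad*, *Thbs4* and *Cxcl5*, with smallest excesses of 1.93-, 1.91- and 1.69-fold. Leaving out members with markers of other cell types turned *Chad* at 1 and 7 dpi, to log2 ratios of -0.86 and -5.25. It turned *Thbs4* at 3 dpi, to -0.24.

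Up to 3 dpi tendon genes were concentrated in members with *Tnmd*. Members with at least 2 UMIs of *Tnmd* made up 28.1%, 18.4%, 9.16% and 16.6%, against 3.46%, 0.95%, 1.44% and 9.76% of the other stromal cells. At 3 dpi *Fmod* stood at 4527 CPM in the 68 *Tnmd* members and 66.2 CPM in the 644 members with no *Tnmd* UMI, and *Thbs4* at 8145 and 500.2 CPM, although *Thbs4* was found in 52.3% of the latter. At 7 dpi the genes were more widely held, with *Fmod* in 60.2% and *Thbs4* in 55.5% of the members with no *Tnmd* UMI. *Prg4* was high in the *Tnmd* members, with 1890, 6111, 4323 and 510 CPM, and lower but present in those without, with 566, 2182, 1005 and 255 CPM. *Cxcl5* went the other way, being found in 0 of 16 (up to 20.6% by the exact interval), 0 of 23 (up to 14.8%), 14.7% and 15.1% of the *Tnmd* members and in 7.69%, 45.5%, 46.9% and 29.7% of those without. When members with at least 2 UMIs, summed over defining markers of other cell types (*Tnmd* and *Col2a1* among them), were left out, the excess of *Fmod* at 1 dpi turned from a log2 ratio of 4.70 to -0.62 and that of *Prg4* at 3 dpi from 0.15 to -0.22. Since *Cxcl5* and *Prg4* both chose the members, their shares in these subsets are a description.

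**Figure D4:**
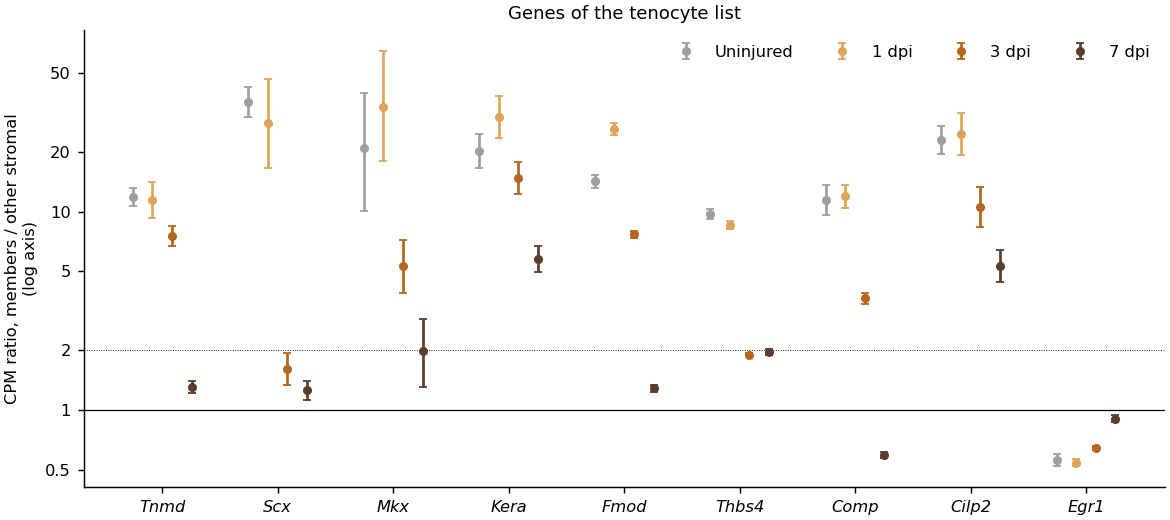
CPM ratio (log axis) of the 9 tenocyte markers, members over other stromal cells, by library, with 95% conditional intervals from counting and a dotted line at 2-fold. *Kera* and *Cilp2* stay above 2-fold in all 4 libraries, while *Tnmd*, *Scx* and *Fmod* come down to less than 2-fold at 7 dpi.

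A small set of members carried Schwann cell genes. At least 3 of 7 Schwann cell markers were found in 7, 10, 7 and 6 members (12.3%, 8.0%, 0.94% and 1.88%), against 1.22%, 1.39%, 0.59% and 1.40% of the other stromal cells. *Chl1* was found in 100%, 90%, 71.4% and 83.3% of them and *Prg4* in 0%, 10%, 57.1% and 0%. Both genes chose the members, so these shares are a description. The 7 Uninjured ones held no UMI of the other rule genes, so the rule fixed the 100% of *Chl1*. *Sox10*, the transcription factor that defines the Schwann lineage, stood at 24.6, 20.1, 2.50 and 4.95 CPM in all members, against 1.82, 2.48, 0.68 and 1.75 CPM in the other stromal cells. The members at hand in the Uninjured and 1 dpi libraries thus held *Prg4* cells with and without *Tnmd*, and a few *Sox10* cells. *Prg4* was found in 16 of 16 and 23 of 23 members with at least 2 UMIs of *Tnmd*. These members held no UMI of *Cxcl5* or *Chl1* and only 1 and 2 UMIs of *Aldh1a2* in all, so the rule fixed these counts.

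Chemokine genes are those the name of the cells points to. *Cxcl5* and its neighbours *Cxcl1*, *Cxcl2* and *Cxcl3* lie together on chromosome 5 and encode ligands that attract neutrophils. Promoter windows of 120 bases before the start were at hand for 3 of them and for *Il6* (RefSeq, GRCm38.p6, plus strand). They are shown because each holds a kappaB motif, the kind of sequence that NF-kappaB binds. It is the 10 letters in capitals, of which the fifth was left free, and both strands were searched. It was found in 58 of 32851 windows of this length (0.177%). By gene it was found in 56 of 27025 (0.207%), and of the 40 genes on the inflammation lists that had a window, 5 held it (12.5%), the other being *Nfkbia*, an inhibitor of NF-kappaB. The windows are Cxcl1 at chr5:90891125-90891244, Cxcl2 at chr5:90903779-90903898, Cxcl3 at chr5:90785981-90786100 and Il6 at chr5:30012994-30013113, and the motif ends 61, 87, 63 and 34 bases before the start.
Cxcl1: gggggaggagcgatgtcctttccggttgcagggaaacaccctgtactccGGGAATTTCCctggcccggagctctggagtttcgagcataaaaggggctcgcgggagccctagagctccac
Cxcl2: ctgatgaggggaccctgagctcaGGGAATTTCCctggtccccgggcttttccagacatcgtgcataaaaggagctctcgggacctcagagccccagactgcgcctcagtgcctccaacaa
Cxcl3: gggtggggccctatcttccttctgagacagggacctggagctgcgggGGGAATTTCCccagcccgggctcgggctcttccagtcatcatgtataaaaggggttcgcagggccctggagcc
Il6: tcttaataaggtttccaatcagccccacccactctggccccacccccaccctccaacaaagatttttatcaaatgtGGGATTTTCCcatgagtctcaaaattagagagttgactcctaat
The letters are a match and no evidence that a factor binds there.

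The 4 genes did not move together in the members. *Cxcl1* stood at 989, 838, 889 and 658 CPM and was found in 68.4%, 67.2%, 81.5% and 71.3% of members, with 1207, 670, 839 and 430 CPM in the other stromal cells. *Cxcl2* stood at 184, 151, 229 and 118 CPM, well under the 1322, 1635, 590 and 625 CPM of the immune cells. *Cxcl3* stood at 38.4, 71.0, 27.8 and 11.6 CPM, and exceeded the other stromal cells 10.0-, 6.67-, 3.58- and 6.94-fold. Without the members that held markers of other cell types, its log2 ratio at 7 dpi turned to -0.20, on 2 UMIs in the members. Its log2 ratio of 3 against 1 dpi (-1.35) turned to 1.70 after thinning, on 34 and 2 UMIs. It turned to 0.17 without the cells over 2 SD from their library's mean in UMIs or genes. *Il6*, the cytokine that drives the acute phase response, stood at 56.8, 192, 189 and 70.2 CPM, against 60.2, 143, 179 and 43.2 CPM. *Cxcl1* was thus a gene of the Uninjured stroma as well. *Csf3*, which encodes the granulocyte growth factor G-CSF, had 1 UMI among all members.

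*Ccl2* and *Ccl7*, chemokines for monocytes, had their highest CPM in the Uninjured members. *Ccl2*, the main monocyte chemokine, stood at 3989, 1520, 1476 and 478 CPM, against 493, 702, 987 and 283 CPM in the other stromal cells, and was found in 28.1%, 61.6%, 76.2% and 58.1% of members. Up to 3 dpi the share of members with *Ccl2* was thus higher where its CPM was lower. Without the cells over 2 SD from their library's mean in UMIs or genes (51 Uninjured members left), the log2 ratio of *Ccl2* between 1 dpi and Uninjured members turned from -1.39 to 1.53. The Uninjured members left then held 178 *Ccl2* UMIs, so its Uninjured level came mostly from the few members removed. Why those members held so much of it was not tested. *Ccl7*, a related chemokine, stood at 1422, 1011, 832 and 353 CPM, and *Csf1*, the growth factor of macrophages, at 149, 361, 298 and 69.9 CPM.

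Chemokines for lymphocytes were sparse in the Uninjured members. All 7 on the list were past 2-fold lower than in the other stromal cells (8.66% of all genes were), against 2 of 7 at 1 dpi (6.71%), 1 of 7 at 3 dpi (7.21%) and 0 of 7 at 7 dpi (6.20%). The list summed to 405, 1241, 1601 and 490.2 CPM against 2775, 2879, 2463 and 617 CPM. In Uninjured muscle the *Smoc2* and *Col15a1* cells held it at 5454 CPM and the *Pi16* cells at 1138 CPM. The rule leaves out both kinds of cell, whereas the other stromal cells include them. *Cxcl14*, a chemokine made by many fibroblasts, was 8.56-, 6.18-, 2.23- and 1.76-fold lower. *Cxcl12*, which holds leukocytes and progenitors in place, stood at 46.1, 244, 345 and 126 CPM, against 106, 276, 290 and 148 CPM. Once cells were thinned to 2000 UMIs, the log2 ratio of *Cxcl14* at 7 dpi turned from -0.82 to 1.62.

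The leading gene split the chemokines at 3 dpi. *Cxcl3* stood at 53.2 CPM in the 125 *Cxcl5*-led members and 22.8 CPM in the 501 *Prg4*-led members, and *Ccl2* at 1994 and 1326 CPM. *Cxcl12* stood at 1381 CPM in the 54 *Aldh1a2*-led members, 959 CPM in the 22 *Chl1*-led members, 283 CPM in the *Cxcl5*-led and 272 CPM in the *Prg4*-led members, and *Cxcl13*, which attracts B cells, at 960, 669, 26.3 and 146 CPM. *Il6* stood at 398 CPM in the *Aldh1a2*-led members and 204 CPM in the *Cxcl5*-led. Lymphocyte chemokines summed to 5474 CPM in *Aldh1a2*-led and 819 CPM in *Cxcl5*-led members, and complement genes to 4072 and 849 CPM. Markers of the *Smoc2* and *Col15a1* interstitial fibroblasts stood at 1578 CPM in *Aldh1a2*-led, 473 CPM in *Chl1*-led, 404 CPM in *Prg4*-led and 170 CPM in *Cxcl5*-led members, whereas the lymphocyte chemokines were 4473 CPM in *Chl1*-led and 1451 CPM in *Prg4*-led members. The median depth was 12200 UMIs in the *Cxcl5*-led, 8579 in the *Prg4*-led and 5706 in the *Aldh1a2*-led members, and neither its part in these values nor that of the interstitial markers was tested.

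At 7 dpi the split was another. *Tnmd* stood at 394 CPM in the 161 *Prg4*-led members, 63.5 CPM in the 59 *Cxcl5*-led and 50.2 CPM in the 84 *Chl1*-led members, and *Kera* at 141, 1.5 and 0 CPM. *Slpi*, an antiprotease, stood at 332 CPM in the *Chl1*-led members and 52.1 CPM in the *Prg4*-led, and *Ptx3*, a pentraxin that binds microbes and hyaluronan complexes, at 776 and 153 CPM. *Acta2*, the smooth muscle actin of contractile fibroblasts, was highest in the *Cxcl5*-led members with 1316 CPM. *Col2a1*, the main cartilage collagen, was present in all 3, with 2164 CPM in *Chl1*-led, 2149 CPM in *Cxcl5*-led and 1494 CPM in *Prg4*-led members. The whole tenocyte list summed to 5245 CPM in the *Prg4*-led, 2166 CPM in the *Cxcl5*-led and 2421 CPM in the *Chl1*-led members. The 7 *Aldh1a2*-led members and the 9 with a tie were too few to be given.

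From Uninjured to 1 dpi, interferon response genes were higher and contractile and matrix genes lower. Of 10375 genes counted in members, 16.1% were past 2-fold higher and 6.58% lower, and the median log2 ratio of all genes was 0.18. Of 16 interferon response genes, 15 were past 2-fold higher, with a median log2 ratio of 3.05 and a sum of 1978 CPM against 301 CPM. *Isg15*, a ubiquitin-like protein, stood at 9.21 and then 422 CPM, and *Bst2*, which tethers viruses at the membrane, at 72.2 and then 1207 CPM (16.7-fold, 12.5 to 22.9). *Ly6e*, another interferon-induced membrane protein, was 14.8-fold higher. The other stromal cells held the same list at 525 and then 1694 CPM.

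Acute phase and complement genes went the same way at 1 dpi. Past 2-fold higher were 6 of 8 acute phase genes, with *Lcn2*, an iron-scavenging protein, at 10.8 and then 196 CPM, and 5 of 9 complement genes, with the central component *C3* at 570 and then 1288 CPM and factor B (*Cfb*) at 41.5 and then 407 CPM. Of 7 lymphocyte chemokines 6 were higher, among them *Cxcl13* with 10.8 and then 305 CPM. Of 17 genes of NF-kappaB feedback and adhesion 8 were higher and none lower. The immune cells of the 1 dpi library held *Lcn2* at 1263 CPM, and the part of free RNA in the *Lcn2* level was not tested.

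The lower genes at 1 dpi included those of activated fibroblasts and of tendon. Of 16 activated matrix genes, 11 were past 2-fold lower, and the list summed to 19850 CPM in Uninjured members and 7374 CPM at 1 dpi. *Acta2* stood at 490 and then 16.7 CPM, *Cthrc1*, a secreted protein of collagen-making fibroblasts, at 712 and then 33.5 CPM, and *Postn*, the matrix protein periostin, at 1193 and then 313 CPM. *Acta2* was found in 19.3% and then 7.2% of members, and the list of pericyte and smooth muscle markers, which holds it, went from 672.5 to 93.7 CPM. *Scx* was 11.1-fold and *Tnmd* 6.78-fold lower, while members with at least 2 UMIs of *Tnmd* went from 28.1% to 18.4%. The part of smooth muscle or tendon cells in the matrix genes was not tested. Of 15 genes of the BMP and TGF-beta pathways none was higher and 5 were lower, among them *Bmp4* at 114 and then 15.4 CPM and *Inhba*, which encodes the activin A subunit, at 233 and then 36.2 CPM. The *Inhba* ratio was smaller without the deepest cells, at a log2 value of -0.32 in place of -2.69. The other stromal cells held *Bmp4* at 111 and then 94.6 CPM.

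From 1 to 3 dpi the matrix genes were higher again, and so were some cell cycle genes. Of 12844 genes, 6.94% were past 2-fold higher and 9.01% lower, and the median log2 ratio was -0.04. All 16 activated matrix genes were past 2-fold higher, with a median log2 ratio of 1.69 and a sum of 20110 CPM, close to the 19850 CPM of Uninjured members. *Acta2* stood at 328 CPM at 3 dpi, *Cthrc1* at 538 CPM and *Postn* at 1790 CPM. *Fn1*, which encodes fibronectin, went from 943 to 2893 CPM, and *Lox*, which cross-links collagen, from 380 to 1291 CPM. The same list was 7668 CPM at 1 dpi and 16180 CPM at 3 dpi in the other stromal cells.

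Proliferation genes were in part higher as well. Of 14 cell cycle genes 7 were higher at 3 dpi, and *Mki67*, a marker of dividing cells, was found in 8.77%, 9.6%, 29.7% and 28.1% of members. *Top2a*, which untangles DNA in division, stood at 38.4, 61.6, 131 and 93.9 CPM. *Mcm5*, a helicase subunit of DNA replication, was at its highest at 1 dpi, with 21.5, 95.7, 51.4 and 30.8 CPM. *Cd44*, the hyaluronan receptor, went from 291 to 681 CPM, and *Runx2*, a transcription factor needed for bone, from 4.69 to 46.1 CPM.

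Genes of 3 lists were among those lower at 3 dpi. Of the interferon response genes 11 of 16 were past 2-fold lower (a sum of 730 CPM), of the tenocyte markers 4 of 9 (*Mkx*, *Kera*, *Fmod* and *Cilp2*) and of the Schwann cell markers 5 of 7. Genes of none of these lists were lower as well. *Bche*, butyrylcholinesterase, stood at 44.5, 96.4, 3.26 and 2.75 CPM, and *Col20a1*, a collagen of minor abundance, at 92.1, 108, 4.68 and 3.30 CPM. *Angptl7*, a secreted angiopoietin-like protein, stood at 230, 427, 55.7 and 6.06 CPM. These genes were all high before and at 1 dpi and low from 3 dpi on, when members were 742 in place of 125. Members with at least 3 Schwann cell markers went from 8.0% at 1 dpi to 0.94% at 3 dpi. Those with at least 2 UMIs of *Tnmd* went from 18.4% to 9.16%, and the part of either shift in these genes was not tested. Without members that held markers of other cell types, the log2 ratio of *Fmod* turned from -1.19 to 1.65.

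*Cxcl5* and *Prg4* were lower at 3 than at 1 dpi, at 0.586 times (0.548 to 0.628) and 0.505 times (0.488 to 0.524) the earlier level, although members were more frequent. Once cells were thinned to 2000 UMIs, which also changed which cells were members, *Cxcl5* had a log2 ratio of 0.52, and the cause of the turn was not tested. *Aldh1a2* was 1.21-fold higher and *Adamts4*, which is not a rule gene, 1.64-fold higher. The course of the rule genes is a description, since they chose the members.

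From 3 to 7 dpi cartilage and bone genes were higher and many chemokine genes lower. Of 13207 genes, 7.60% were past 2-fold higher and 7.62% lower, and the median log2 ratio was -0.11. Of 16 chondrogenic genes 14 were past 2-fold higher, with a median log2 ratio of 5.75, and the list summed to 672.5, 560.3, 295 and 5648 CPM in the 4 libraries. *Col2a1* stood at 12.3, 0, 0.98 and 1806 CPM, and at least 1 UMI was found in 65.0% of members at 7 dpi. At least 2 UMIs were found in 42.2% of members and 39.0% of the other stromal cells there. The part of free RNA in these shares was not tested. *Acan*, the large proteoglycan of cartilage, stood at 3.07, 1.34, 0.87 and 635 CPM, and *Sox9*, the transcription factor of chondrocytes, at 10.8, 35.5, 35.3 and 167 CPM. *Col2a1* and *Acan* were thus near 0 at 1 and 3 dpi, when *Sox9* was detected.

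Of 8 osteogenic genes 6 were past 2-fold higher at 7 dpi, and the list went from 90.8 to 2198 CPM. *Ibsp*, bone sialoprotein, stood at 0, 0, 4.35 and 1516 CPM, with 1398 of its 5510 UMIs (25.4%) from 1 cell and 63.2% from 5 cells, and it was found in 38.8% of members. *Alpl*, the alkaline phosphatase of mineralizing cells, stood at 0, 14.1, 3.70 and 212 CPM, and *Sp7*, the transcription factor osterix, at 12.3, 0, 1.20 and 26.4 CPM. *Bglap*, osteocalcin, had 0.28 CPM at 7 dpi, so that the late bone gene of the list was nearly absent. The other stromal cells of the 7 dpi library held more of both programs, with 10690 CPM of chondrogenic and 2827 CPM of osteogenic genes, and 6 of 16 chondrogenic genes were past 2-fold lower in the members, where 6.20% of all genes were.

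Many inflammatory genes of the members were lower at 7 dpi. Past 2-fold lower were 5 of 8 monocyte factors (2731 to 962 CPM), 5 of 7 lymphocyte chemokines (1601 to 490.2 CPM), 5 of 10 genes of the interleukin 6 family and alarmins and 8 of 16 interferon response genes. *Csf1* was 4.26-fold lower, *Cxcl13* 7.46-fold and *C3* 3.48-fold. *Adamts4* was 4.58-fold lower. Since the rule genes chose the members, their course is a description. *Prg4* was 4.48-fold lower, *Cxcl5* 2.67-fold and *Aldh1a2* 10.2-fold. *Chl1* went the other way, 1.44-fold higher (1.28 to 1.61). *Cxcl1* did not pass 2-fold, with 889 and then 658 CPM. *Saa3* was higher, at 29.5 and then 130 CPM, mostly from 1 cell, and so was *Slpi*, at 36.6 and then 155 CPM.

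**Figure D5:**
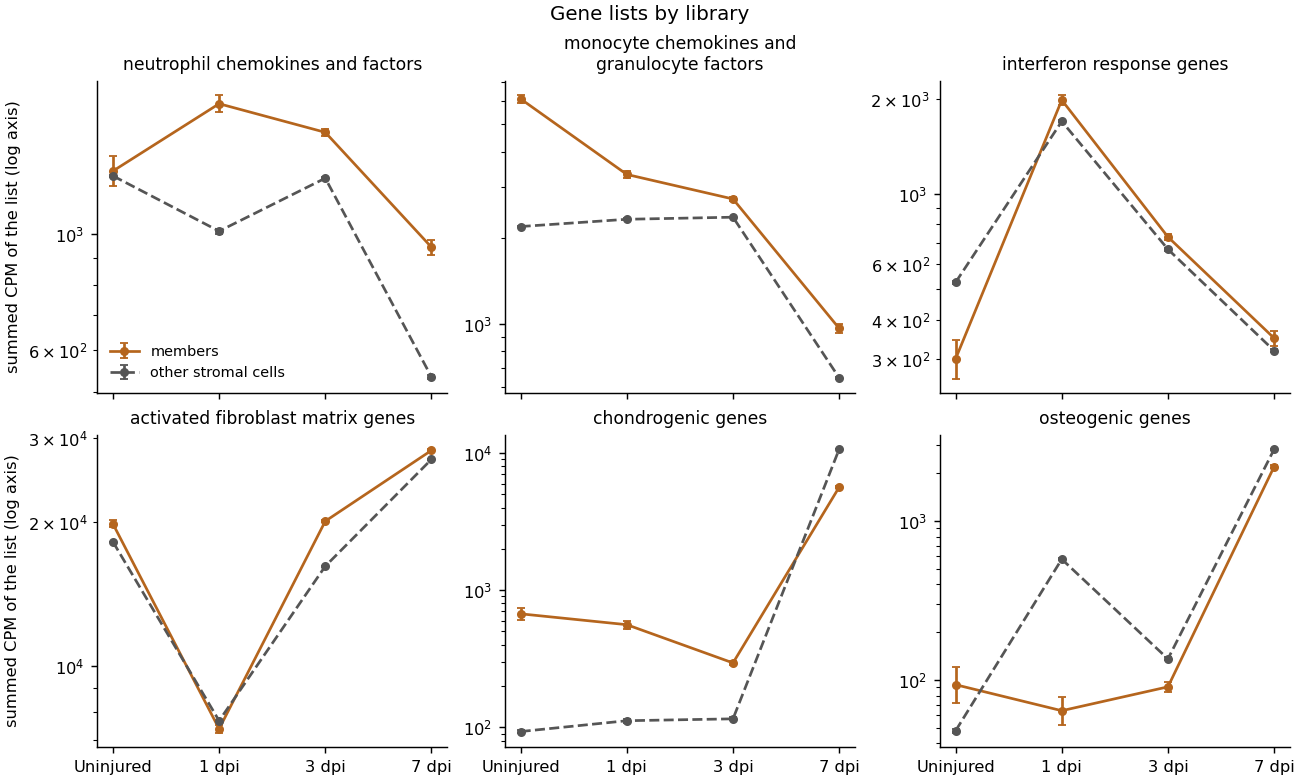
Summed CPM (log axes, 95% exact Poisson intervals) of 6 gene lists in members (solid) and other stromal cells (dashed), by library. Interferon response genes of the members peak at 1 dpi with 1978 CPM, activated matrix genes dip to 7374 CPM there, and chondrogenic genes are lowest at 3 dpi with 295 CPM and highest at 7 dpi with 5648 CPM.

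Interferon and matrix lists rose and fell between the same libraries in the other stromal cells, and chondrogenic genes were highest at 7 dpi in both, whereas the summed monocyte factors differed in course. The latter summed to 6123, 3329, 2731 and 962 CPM in the members and to 2187, 2319, 2358 and 645 CPM in the other stromal cells. The Uninjured sum of the members was mostly *Ccl2* (3989 CPM), whose log2 ratio between 1 dpi and Uninjured members turned from -1.39 to 1.53 without the cells over 2 SD in UMIs or genes. Members and other stromal cells differed past 2-fold in 20.2% of genes in Uninjured muscle, 13.8% at 1 dpi, 10.1% at 3 dpi and 10.1% at 7 dpi, with 57, 125, 742 and 320 members behind these shares. Activated matrix genes were past 2-fold higher in the members for 10 of 16, 6 of 16, 1 of 16 and 0 of 16, and cell cycle genes for 9 of 14, 6 of 14, 0 and 0, where 11.6%, 7.12%, 2.86% and 3.90% of all genes were. Deep cells weigh most in these sums, and the 2 *Cxcl5*-led Uninjured members had a median of 43250 UMIs, against 8199 for all 57. The part of a few deep members in the Uninjured counts and levels of these lists was not tested, and *Acta2* was found in a minority of Uninjured members. In Uninjured muscle *Acta2* stood at 490 CPM in the members and 86.9 CPM in the other stromal cells, *Cthrc1* at 712 and 133 CPM, and *Timp1*, a metalloproteinase inhibitor, at 2263 and 356 CPM. Over the whole matrix list the sums were closer, at 19850 and 18200 CPM, since *Sparc*, a collagen-binding glycoprotein, made up most of it in the members with 11990 CPM.

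Single genes lay far apart. In Uninjured muscle *Col22a1*, a collagen of the myotendinous junction, stood at 135 CPM in the members and 1.04 CPM in the other stromal cells, and *Ptx4*, a pentraxin, was 43.2-fold higher. At 1 dpi *Col20a1* was 41.3-fold higher, and *Chad*, a cartilage protein that binds integrins, was 37.0-fold higher, with 164 CPM. Without the members that held markers of other cell types, the log2 ratio of *Chad* at 1 dpi turned from 5.21 to -0.86, on 3 UMIs in the members. At 7 dpi *Cxcl5*, which chose the members, was 13.6-fold higher, and of the genes outside the rule *Sostdc1*, a BMP and Wnt antagonist, was 9.66-fold higher. *Lox* was 2.19-, 2.23-, 1.77- and 1.50-fold higher in the 4 libraries. Of the lower genes, *Smoc2*, which the rule limits, was the farthest in the Uninjured and 1 dpi libraries, followed at 1 dpi by *Bglap* with 10.0 CPM against 300.6 CPM. At 3 dpi *Jchain* was 24.9-fold and at 7 dpi *Igkc* 25.6-fold lower, both genes of antibody-making cells.

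Against the left-out cells with the rule genes, which share those genes and differ in *Pi16*, *Smoc2* or *Col15a1*, the tendon genes stood out again. Past 2-fold higher in the members were 8 of 9, 8 of 9, 7 of 9 and 5 of 9 tenocyte markers, where 9.43%, 6.03%, 3.61% and 2.26% of all genes were. The summed level of the rule genes themselves was 0.73, 1.45, 0.81 and 1.06 times that of the left-out cells. *Cxcl14* was past 2-fold lower in all 4 libraries. Of the chondrogenic genes 9 of 11, 6 of 8, 7 of 12 and 1 of 16 were higher, among them *Comp*, a matrix protein of cartilage and tendon, in the first 3 libraries.

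Markers of other cells bear on these values. Synovial lining, where *Prg4* is made in joints, was looked for by 8 genes, *Prg4* among them. At least 3 of the 8 were found in 12.3%, 11.2%, 17.9% and 11.9% of members. In the other stromal cells, which were far shallower at 7 dpi, the shares were 6.52%, 10.3%, 13.9% and 2.02%. *Prg4* chose the members and was found in 86.0%, 86.4%, 93.5% and 66.2% of them, so these shares are a description. *Hbegf*, a growth factor on the list, stood at 43.0, 96.4, 67.4 and 38.0 CPM and *Clic5*, an intracellular channel protein, at 1.54, 2.68, 0.22 and 0 CPM. *Col22a1*, also on the list, was among the genes with the largest ratios in 2 libraries. It stood at 135 CPM in the Uninjured members against 1.04 CPM in the other stromal cells, and at 26.4 against 2.76 CPM at 7 dpi. Of 10 mesothelial markers 9, 9, 6 and 7 had no UMI, *Msln* and *Upk3b* among those at 0 in 3 or more libraries, and the list summed to at most 4.95 CPM. Of 8 neutrophil markers 6, 3, 0 and 2 were at 0, and the list summed to 3.07, 162, 222.5 and 20.1 CPM, against 10660, 27240, 9087 and 2289 CPM in the immune cells. *S100a8*, a neutrophil granule protein, was found at 1 dpi in 44.0% of members with at most 4 UMIs each, and at 3 dpi 273 of its 799 UMIs (34.2%) came from 1 cell. The list was thus highest at 3 dpi in the members and at 1 dpi in the immune cells. Of 10 monocyte markers 7, 0, 0 and 2 were at 0, and the list summed to 139.7, 255.7, 69.8 and 41.8 CPM, with *Lyz2* the most abundant. The part of free RNA or doublets in these levels was not tested.

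At 7 dpi cartilage markers were found in members and in other stromal cells, whose depths differed (medians of 8916 and 3316 UMIs). At least 2 UMIs of *Col2a1* were found in 42.2% of members and 39.0% of the other stromal cells, and 30.6% and 33.9% held at least 3 chondrocyte markers, although the summed level of the chondrogenic genes was lower in the members. With the members that held markers of other cell types left out, 33, 91, 659 and 140 remained. Of 10 muscle markers all were past 2-fold lower in the members than in the other stromal cells at 3 dpi (7.21% of all genes were), and the list summed to 53.7, 31.5, 73.1 and 45.1 CPM.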

How the data were processed

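Single-cell libraries were made from tibial muscle on the 10x platform, 1 library per group. The authors demultiplexed barcodes, mapped reads with the STAR aligner in Cell Ranger 5.0.0 (build mm10 and Seurat 3.1.1 per the submitters' processing notes) and down-sampled reads across samples, and the deposited matrices hold raw UMI counts per gene and cell. The authors ran DoubletFinder and removed cells over 10% mitochondrial UMIs, but 204, 869, 1042 and 726 such cells were in the files of the 4 libraries, and whether doublets had been removed from these is not given in the sources used here. No doublets were removed in the main analysis. Here, cells over 10% mitochondrial UMIs were left out, and UMIs were summed over the members of a library, over the other stromal cells and over the left-out cells. With 1 library per group no test was made. Ratios of CPM have exact conditional intervals, levels exact Poisson intervals and shares Clopper-Pearson intervals. Genes with at least 10 UMIs in both groups together were counted as past 2-fold. The genes named were members of the gene lists and the genes with the largest ratios. The latter had at least 100 UMIs in the group with more UMIs of the gene and at least 10 in the other group. For genes higher in the members, the other stromal cells could hold more UMIs, as for *Sostdc1* at 7 dpi (36 and 109 UMIs). Tendon and inflammation genes outside the largest ratios were picked after their values were seen. The members and lists were chosen with earlier results of these data known. The left-out cells as a comparison were added after seeing the data. Positions are from GENCODE M21. Some genes of the lists are not reported here. Python 3.11.15, numpy 2.4.6, scipy 1.17.1, pandas 2.3.3 and Scrublet in scanpy 1.11.5 were used. Tested on simulated counts, a 4-fold rise was past 2-fold for 100% of 51 genes and a 2-fold rise for 60% of 50, among 3229 genes simulated for the comparison of 1 dpi with Uninjured members, fewer than the 10375 counted. The simulated counts were Poisson draws without spread between cells, so they say nothing about genes whose UMIs came mostly from a few cells.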

Additional observations from a re-analysis of the deposited data

Results flagged for a closer look

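For 4 of 405 genes looked at, the difference between members and the other stromal cells was past 2-fold in opposite directions in different libraries. The difference between libraries was not tested. *Acta2* was 5.64-fold higher in the members in Uninjured muscle and 2.98-fold lower at 1 dpi. *Myh11*, a myosin of smooth muscle, was 5.64-fold higher in Uninjured muscle, on 65 UMIs in 1.75% of members, and 5.77-fold lower at 7 dpi. *Lyz2*, the lysozyme of macrophages and neutrophils, was 19.1-fold higher in Uninjured muscle and 5.32-fold higher at 1 dpi, and 3.29-fold lower at 7 dpi. In Uninjured muscle 54 of its 86 UMIs (62.8%) came from 1 member. *Spp1*, the matrix protein osteopontin, was 4.54-fold higher in Uninjured muscle, in 3.51% of members, and 4.03-fold lower at 1 dpi and 2.40-fold lower at 3 dpi.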

How the results depend on the processing

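No paired analysis was possible because each group had 1 library, and no library could be left out. Of the shares of members, 15 values under 7 settings lay within 1 counting interval of the values reported and 13 did not. Those 13 were 13.0% at 3 dpi and 3.68% at 7 dpi with at least 2 UMIs of the rule genes, 0.393% (Uninjured), 8.84% (3 dpi) and 0.72% (7 dpi) with at least 5, 1.66%, 8.28%, 22.9% and 0.833% after thinning, and 0.35%, 2.40%, 9.94% and 0.763% with members that held markers of other cell types left out. The 3 dpi share was the highest in each of these sets. Of the counts of genes past 2-fold, 59 stayed within 1.5 times the main count and 7 did not. With at least 1 UMI, 3236 genes were counted for 3 dpi against 1 dpi (2049 in the main count) and 2533 for members against other stromal cells at 3 dpi (1627). With at least 50 UMIs, 878 were counted for 1 dpi against Uninjured (2350), 1104 for 3 against 1 dpi, 990 for 7 against 3 dpi (2010) and 912 against other stromal cells at 3 dpi. The mean of CPM per cell gave 2580 for the last. With at least 5 UMIs, or with markers of other types left out, fewer than 50 Uninjured members remained and no gene count was made for them.

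Of 1450 values of single genes, 839 stayed within the counting interval, 576 moved and 35 changed sign. Leaving out members with markers of other cell types turned these log2 ratios against the other stromal cells. At 1 dpi *Tnmd* was -3.31, *Fmod* -0.62 and *Chad* -0.86. At 3 dpi *Prg4* was -0.22, *Cilp2* -0.13, *Tnmd* -1.45, *Scx* -0.63 and *Thbs4* -0.24. At 7 dpi *Kera* was -0.57, *Cilp2* -3.29, *Wif1* -2.00, *Tnmd* -4.28, *Fmod* -1.01, *Scx* -0.80, *Cxcl3* -0.20, *Chad* -5.25 and *Ptx4* -1.86. *Tnmd* is fixed by that setting. In the same setting *Fmod* was 1.65 for 3 against 1 dpi. Thinning turned *Aldh1a2* (0.72, 1.29, 0.60 and 3.09 in the 4 libraries), *Adamts4* (0.84 at 1 dpi, 0.16 at 3 dpi), *Saa3* (1.31 at 3 dpi) and *Cxcl14* (1.62 at 7 dpi) against the other stromal cells, *Cxcl5* (0.52) and *Cxcl3* (1.70, on 34 and 2 UMIs) for 3 against 1 dpi, and *Ccnb1* (0.28, on 2 and 1 UMIs) for 1 dpi against Uninjured. Without cells over 2 SD in UMIs or genes, *Ccl2* was 1.53 for 1 dpi against Uninjured and *Cxcl3* 0.17 for 3 against 1 dpi. With at least 2 UMIs *Aldh1a2* at 7 dpi was 0.13. As a mean of CPM per cell *Adamts4* (0.22) and *Saa3* (0.63) at 3 dpi and *Aldh1a2* (0.60) at 7 dpi turned. The cause was not tested. Leaving out the member with most UMIs of a gene was added after seeing the data and turned none of the values it gave. Removing the 7.5% of cells with the highest Scrublet scores moved 7 values of single genes and left 166, the 4 shares and 7 gene counts within these limits. The Uninjured values rest on 57 members.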

Other observations

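Genes of hyaluronan moved in several ways. Of 14 genes of hyaluronan and lubricin, which include the rule gene *Prg4*, 3 were past 2-fold higher at 7 dpi than at 3 dpi and 4 lower (7.60% and 7.62% of all genes were). *Has1*, a hyaluronan synthase, stood at 330, 597, 461 and 162 CPM in the members, and *Hapln1*, which links hyaluronan to aggrecan in cartilage, at 4.61, 0.67, 0 and 183 CPM. *Tnfaip6*, which binds hyaluronan in inflamed tissue, stood at 637, 402, 521 and 386 CPM. *Has1* was thus highest at 1 dpi and *Hapln1* at 7 dpi. *Mmp3*, a matrix metalloproteinase, stood at 16.9, 93.1, 42.3 and 33.9 CPM.

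Retinoic acid genes did not follow *Aldh1a2* alone. *Cyp26b1*, which clears retinoic acid, stood at 13.8, 87.7, 28.5 and 20.4 CPM, and *Crabp2*, which carries it to the nucleus, at 19.96, 0.67, 15.4 and 46.8 CPM, with 1 UMI at 1 dpi. *Cyp26b1* was thus highest at 1 dpi. Of the prostaglandin genes, *Ptgs2*, the inducible cyclooxygenase, stood at 192, 239, 186 and 222 CPM and changed little, whereas *Ptgis*, prostacyclin synthase, stood at 309, 254, 79.8 and 75.4 CPM. Hypoxia and glycolysis genes summed to 4096, 3190, 4787 and 6574 CPM in the members and 2322, 2508, 4291 and 4460 CPM in the other stromal cells. Stress and immediate early genes, which tissue digestion is known to induce, summed to 16720, 11540, 6920 and 7992 CPM, against 27920, 18390, 10260 and 9346 CPM, and their part in other values was not tested.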
